A study of Homo sapiens with 5 samples.

Results

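The genes described here make sterols and fatty acids, or control the genes that do. They are 32 gene symbols on a list chosen with earlier results of these data known. Shares of the list set beside those of all genes are therefore descriptions. The symbols were matched exactly to the gene column of the deposited expression table, and all 32 were found among its 57773 rows. The list holds 18 sterol enzymes, 8 fatty acid enzymes and 6 regulators, counting the sterol carrier STARD4 with the regulators, and it does not hold every gene of either pathway. RNA was measured in HCT116, a colorectal carcinoma cell line, in derivatives that the series describes as Dicer knockouts. Dicer cuts microRNA precursors, so all 5 libraries, the control included, come from cells described as lacking that step. Cells were transfected with a negative control, native let-7a, a methylated let-7a named 19A, native miR-17 or a methylated miR-17 named 13A, with 1 library each. The labels give no dose, time, clone or kind of methyl group.

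Cells build cholesterol from acetyl-CoA through mevalonate, farnesyl diphosphate, squalene and lanosterol, and build fatty acids from acetyl-CoA through malonyl-CoA. Sterol regulatory element-binding proteins (SREBPs) are membrane-bound transcription factors that drive most of these genes. When sterols are scarce, the escort protein SCAP carries SREBPs to the Golgi, where proteases release the active part, and when sterols are plentiful, INSIG proteins hold SCAP in the endoplasmic reticulum. Dividing tumour cells use both pathways to build membranes.

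Levels are in TPM, a length-scaled share of each library's transcripts. Libraries were compared by subtracting log2(TPM + 1) of the second from that of the first named. The members were set beside the 14177 genes tested, whose mean over the 5 libraries reached 1 TPM, and all 32 members are among them. Because each group holds 1 library, no difference has a replicate check, no test was made, and the size rules below (1.5-fold and 2-fold in TPM + 1) are not tests. Sequencing depth is unknown, and in such bulk samples fewer cells of a type and less RNA per cell cannot be told apart. All 7 epithelial markers of the labelled cell type were detected, with EPCAM between 524.4 and 618.8 TPM and KRT8 between 1902.3 and 2910.4 TPM, while the blood markers PTPRC and CD3E were at or under 0.1 TPM. Among the other markers, the fibroblast gene COL1A1 lay between 10.8 and 16.3 TPM, and COL1A2, VWF and ALB stayed under 1 TPM. The summed level of the 7 epithelial markers was 7829.0 TPM for the control, 8197.7 and 7777.5 TPM with native and methylated let-7a, and 9107.4 and 9402.5 TPM with native and methylated miR-17, and its part in the results was not tested. KRT8 and KRT18 carry the higher sums, KRT18 with 1681.1 TPM in the control and 2223.9 and 2336.1 TPM with native and methylated miR-17. KRT19, with 3109.4 TPM in the control and 2734.4 and 2901.9 TPM, and the intestinal factor CDX2, with 12.5 TPM and 10 and 8.8 TPM, were lower than the control in both miR-17 libraries. DICER1 RNA lay between 11.2 and 15.9 TPM, which does not check the knockout, since no library with intact Dicer was analysed here and RNA may persist from a disrupted gene. Mitochondrially encoded genes held between 9.36% and 12.6% of a library and ribosomal protein genes between 14.2% and 17.6%, in both cases with the control and methylated miR-17 at opposite ends. With the libraries rescaled without these genes, the median log2 difference of the sterol enzymes was -0.48 with native and -0.42 with methylated miR-17, the same to 2 decimals as without rescaling.

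The sterol enzymes were lower in both miR-17 libraries and near the control in both let-7a libraries. Summed over the 18 enzymes, the control held 2185.6 TPM, native let-7a 2295.5 TPM, methylated let-7a 2157.5 TPM, native miR-17 1543.7 TPM and methylated miR-17 1616.8 TPM. The miR-17 sums were 70.6% and 74.0% of the control, and the let-7a sums 105.0% and 98.7%. Of the 18 enzymes, 17 had less TPM in both miR-17 libraries than in any of the other 3 libraries, a pattern held by 24.0% of all genes tested and by 28.2% of the 8805 genes averaging 10 TPM or more. The exception was TM7SF2. Its values lay above the other 3 libraries in both miR-17 libraries, as for 20.8% of all genes tested.

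**Figure D1:**
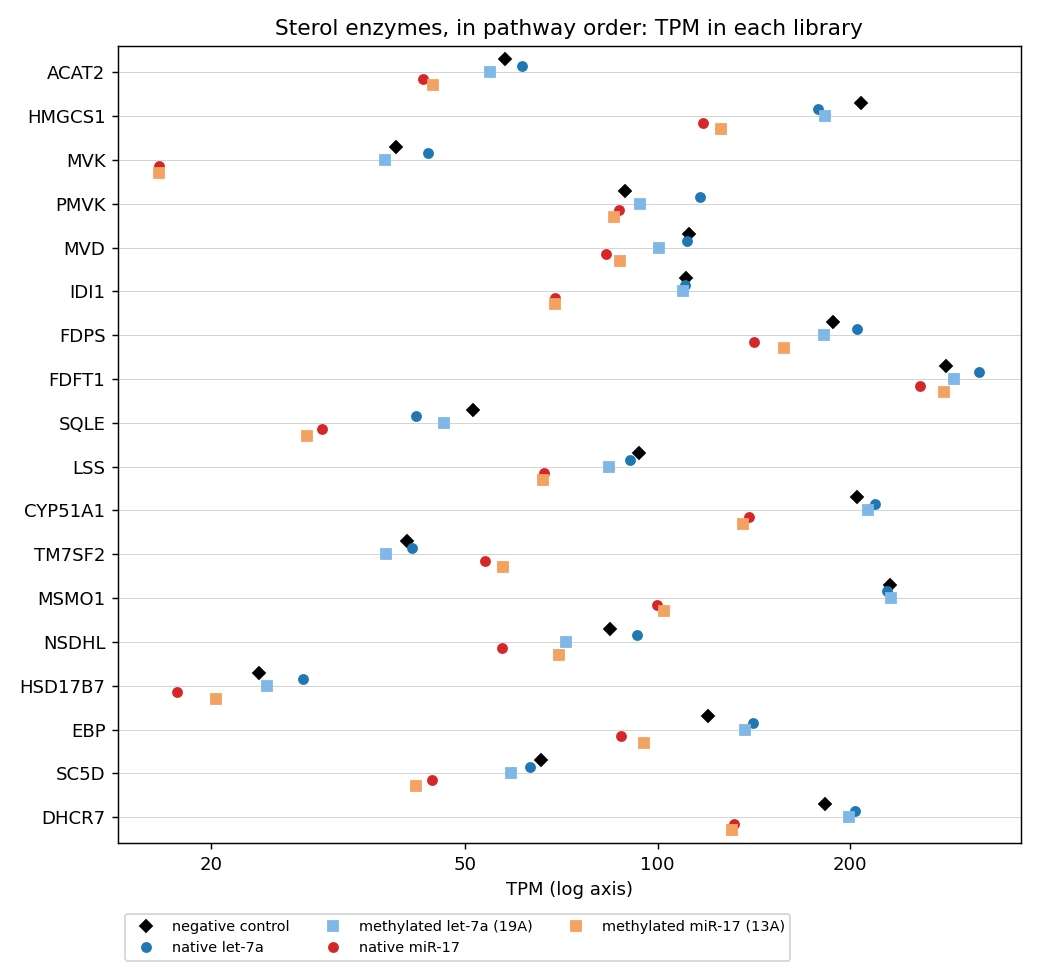
TPM (log axis) of the 18 sterol enzymes in pathway order from top to bottom, 1 point for each of the 5 libraries, with no error bars because each group is 1 library. The points of both miR-17 libraries lie to the left of the other 3 points in 17 of 18 rows, and to the right for TM7SF2.

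The enzymes from acetyl-CoA to farnesyl diphosphate were all lower than the control with native miR-17, with a median log2 difference of -0.43 over 7 enzymes. PMVK was the nearest to the control (-0.03), and 46.5% of all genes tested were lower in this comparison. ACAT2, the cytosolic thiolase that joins acetyl-CoA units, had 57.7, 61.4 and 54.7 TPM in the control, native let-7a and methylated let-7a, and 42.9 and 44.6 TPM with native and methylated miR-17. TCP1, a chaperonin gene whose exons overlap those of ACAT2 on the opposite strand, had 182.7 TPM in the control and 150.5 and 166.4 TPM with native and methylated miR-17. HMGCS1, which makes HMG-CoA, had 208.2 TPM in the control, 178.0 and 182.7 with native and methylated let-7a, and 118.0 and 125.9 with native and methylated miR-17. The let-7a libraries thus fell between the control and the miR-17 libraries for HMGCS1, with log2 differences from the control of -0.23 and -0.19 against -0.81 and -0.72.

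MVK, mevalonate kinase, had 39.0 TPM in the control, 43.7 and 37.4 with native and methylated let-7a, and 16.6 in each miR-17 library. Its log2 difference from the control was -1.18 with either form of miR-17. MMAB, which overlaps MVK on the opposite strand, had 20.3 TPM in the control and 16.7 and 15.6 TPM with native and methylated miR-17. PMVK, the kinase of the next step, stayed near the control with miR-17. It had 88.9 TPM in the control, 116.4 and 93.8 with native and methylated let-7a, and 87.1 and 85.4 with native and methylated miR-17. PMVK was the sterol enzyme with the largest positive difference in native let-7a (0.39), and its miR-17 values differed from the control by -0.03 and -0.06.

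MVD, the decarboxylase that yields isopentenyl diphosphate, had 112.2 TPM in the control, 111.3 and 100.6 with native and methylated let-7a, and 83.1 and 87.3 with native and methylated miR-17. IDI1, which isomerises that product, had 110.9, 110.3 and 109.8 TPM in the control, native let-7a and methylated let-7a, and 69 and 69.2 TPM with native and methylated miR-17. For IDI1 the higher miR-17 value lay 37.0% under the lowest of them. FDPS, which condenses the units to farnesyl diphosphate, had 188.0 TPM in the control, 205.3 and 182.3 with native and methylated let-7a, and 141.8 and 157.8 with native and methylated miR-17.

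At the squalene and lanosterol steps the 3 enzymes spread widely. FDFT1, squalene synthase, had 282.7 TPM in the control, 319.0 and 291.1 with native and methylated let-7a, and 257.4 and 281.0 with native and methylated miR-17. With methylated miR-17 it was thus within 0.601% of the control, which was the lowest of the other libraries. SQLE, the epoxidase that is a rate-controlling step of the later pathway, had 51.4 TPM in the control, 41.9 and 46.4 with native and methylated let-7a, and 29.9 and 28.3 with native and methylated miR-17. SQLE had the lowest difference of the sterol enzymes in native let-7a (-0.29), and in the miR-17 libraries it differed from the control by -0.76 and -0.84. LSS, which cyclises the epoxide to lanosterol, had 93.7 TPM in the control, 90.5 and 84.0 with native and methylated let-7a, and 66.5 and 66.3 with native and methylated miR-17.

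Of the 8 enzymes that turn lanosterol into cholesterol, 7 were lower than the control in each miR-17 library. Among all genes tested 46.5% were lower with native and 56.3% with methylated miR-17. CYP51A1, the lanosterol demethylase, had 205.1 TPM in the control, 219.0 and 213.1 with native and methylated let-7a, and 139.1 and 136.2 with native and methylated miR-17. MSMO1, the methylsterol oxidase, had 231.1, 228.9 and 232.3 TPM in the control, native let-7a and methylated let-7a, and 99.8 and 102.5 TPM with native and methylated miR-17. MSMO1 had the lowest difference of all members in native miR-17 (-1.20), while its values in the 3 other libraries lay close together. NSDHL, which works with MSMO1 to remove the methyl groups, had 84.2 TPM in the control, 92.8 and 71.9 with native and methylated let-7a, and 57.1 and 70.2 with native and methylated miR-17. For NSDHL the methylated miR-17 value came to within 2.36% of the lowest other library.

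HSD17B7, a sterol ketone reductase, had 23.8 TPM in the control, 27.9 and 24.5 with native and methylated let-7a, and 17.7 and 20.4 with native and methylated miR-17. Its pseudogene HSD17B7P2, a near-identical copy from which reads may be split, had 4.0 TPM in the control and 5.4 and 4.4 TPM with native and methylated miR-17, so the value of HSD17B7 is uncertain to that extent. EBP, the sterol isomerase, had 119.8 TPM in the control, 141.0 and 137.0 with native and methylated let-7a, and 87.7 and 95.2 with native and methylated miR-17. SC5D, a sterol desaturase, had 65.8, 63.2 and 58.9 TPM in the control, native let-7a and methylated let-7a, against 44.4 and 41.9 TPM with native and methylated miR-17. DHCR7, the last reductase of this branch, had 182.6, 203.6 and 199.4 TPM in the control, native let-7a and methylated let-7a, against 131.9 and 130.6 TPM with native and methylated miR-17. In these 4 genes both miR-17 libraries lay under all 3 others, as for 24.0% of all genes tested.

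TM7SF2, a sterol C14 reductase, had 40.5, 41.3 and 37.6 TPM in the control, native let-7a and methylated let-7a, and 53.7 and 57.4 TPM with native and methylated miR-17. Its log2 differences from the control were 0.40 and 0.49, the highest of all 32 members. It is annotated with exons shared on the same strand with VPS51, a vesicle tethering subunit, which had 61.0 TPM in the control, 75.3 and 72.2 with native and methylated let-7a, and 66.2 and 70.8 with native and methylated miR-17. VPS51 was therefore higher than the control in all 4 microRNA libraries, and how reads were divided between these genes is not given in the sources used here.

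Counted by size, 7 of the 32 members were at least 1.5-fold lower than the control with native miR-17. With methylated miR-17 the number was 11, or 5 when differences were centred on the median of all genes tested. The share of all genes past that size was not computed with centring, and the shares below are without it. By group, 5 of the 18 sterol enzymes were at least 1.5-fold lower than the control with native miR-17, where the same held for 5.93% of all genes tested, and 7 of 18 with methylated miR-17, where it held for 10.1%. These 5 were HMGCS1, MVK, IDI1, SQLE and MSMO1, and CYP51A1 (-0.59) and SC5D (-0.64) joined them with methylated miR-17. The 5 members left with methylated miR-17 after centring are the same 5, without CYP51A1 and SC5D. MVK and MSMO1 were at least 2-fold lower in both, a size reached by 1.71% of all genes tested with native and 2.36% with methylated miR-17. No sterol enzyme was at least 1.5-fold higher in either, against 6.50% and 5.33% of all genes tested. Of the 6 regulators, INSIG1 and INSIG2 (33.3%) were at least 1.5-fold lower in both miR-17 libraries, beside the same 5.93% and 10.1% of all genes tested. With methylated miR-17 neither reached that size after centring. The median log2 difference of the 18 enzymes was -0.48 with native and -0.42 with methylated miR-17, beside 0.02 and -0.07 over all genes tested. The miR-17 comparisons, like those of let-7a, share the control library, so they are not separate evidence of direction.

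In the let-7a libraries the sterol enzymes had a median log2 difference from the control of 0.09 (native) and -0.05 (methylated), beside 0.00 and -0.04 over all genes tested. None of the 18 was 1.5-fold lower or higher in either. Among all genes tested, 3.85% were 1.5-fold lower and 4.20% higher with native let-7a, and 2.96% lower and 3.34% higher with methylated let-7a. With the mean of both let-7a libraries in place of the control, the sterol median was -0.52 in native and -0.45 in methylated miR-17.

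**Figure D2:**
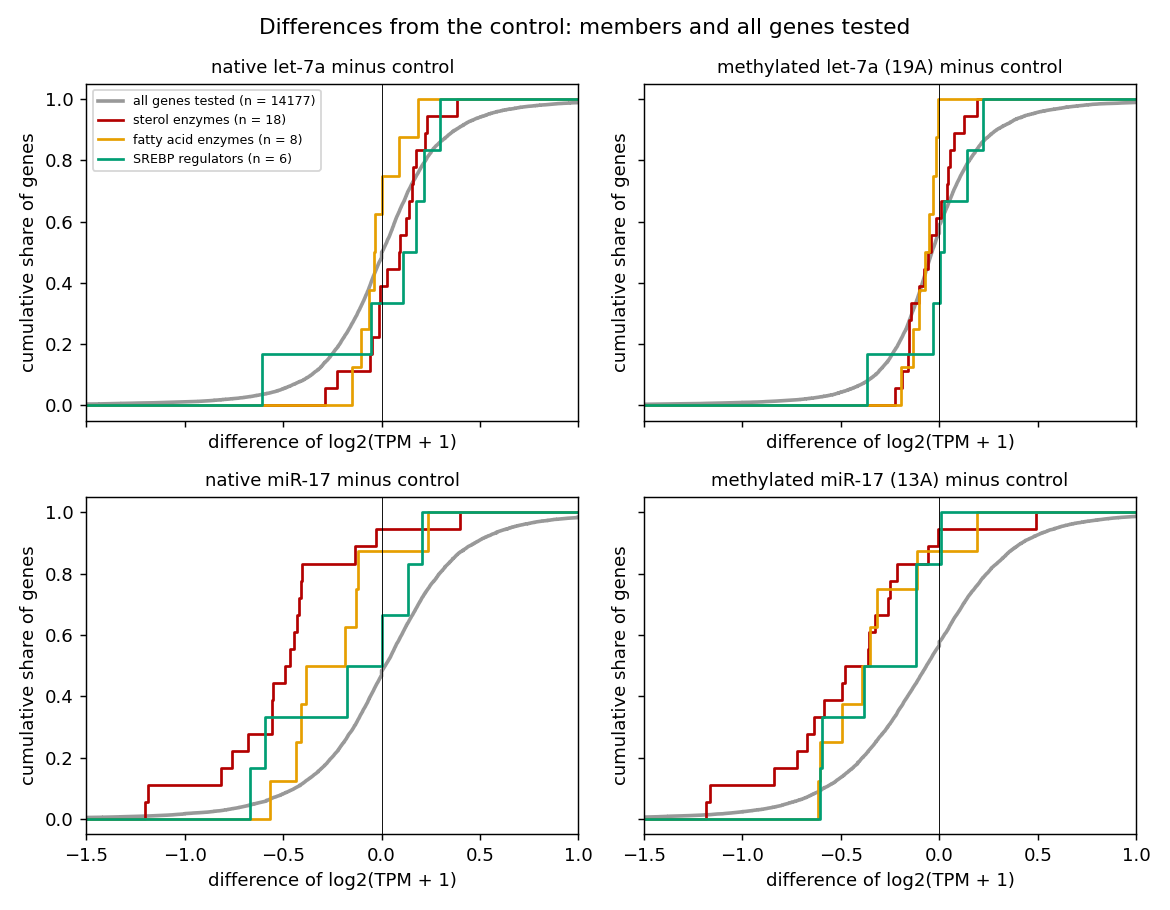
Cumulative share of genes (vertical axis) against the difference of log2(TPM + 1) from the control (horizontal axis), 1 panel for each microRNA library. The sterol curve has a median of -0.48 with native and -0.42 with methylated miR-17, and of 0.09 and -0.05 in the let-7a panels, where it stays near the grey curve of all 14177 genes.

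The fatty acid enzymes were also lower in both miR-17 libraries, all but FADS2. Of all genes tested, 46.5% were lower than the control with native and 56.3% with methylated miR-17. Their summed level was 5640.4 TPM for the control, 5613.3 and 5518.7 TPM with native and methylated let-7a, and 4150.7 and 3768.5 TPM with native and methylated miR-17, or 73.6% and 66.8% of the control. SCD, the stearoyl-CoA desaturase that makes monounsaturated fatty acids, supplies most of this sum. SCD had 3998.2, 3907.3 and 3984.7 TPM in the control, native let-7a and methylated let-7a, and 2957.4 and 2606.5 TPM with native and methylated miR-17. FASN, the synthase that builds palmitate, had 985.7, 1046.3 and 938.5 TPM in the control, native let-7a and methylated let-7a, and 665.8 and 646.9 TPM with native and methylated miR-17. Both genes were at least 1.5-fold lower than the control with methylated miR-17 (FASN -0.61, SCD -0.62), as were 10.1% of all genes tested. After centring on the median of all genes tested, neither gene reached that size with methylated miR-17. Neither reached it with native miR-17, where FASN differed by -0.57 and SCD by -0.43. With native miR-17, 5.93% of all genes tested were lower by that size.

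Enzymes that supply or lengthen the chain came next. ACLY, which makes cytosolic acetyl-CoA from citrate, had 388.4, 389.0 and 338.8 TPM in the control, native let-7a and methylated let-7a, and 292.7 and 295.1 TPM with native and methylated miR-17. ACSS2, which makes it from acetate, had 80.1, 91.3 and 74.4 TPM in the control, native let-7a and methylated let-7a, and 70.4 and 74.0 TPM with native and methylated miR-17, so its higher miR-17 value and its lower let-7a value were nearly the same. ACACA, the carboxylase that makes malonyl-CoA, had 71.6, 69.7 and 70.0 TPM in the control, native let-7a and methylated let-7a, and 65.4 and 55.8 TPM with native and methylated miR-17. ELOVL6, the elongase of palmitate, had 69.2, 66.2 and 66.6 TPM in the control, native let-7a and methylated let-7a, and 52.8 and 48.9 TPM with native and methylated miR-17. In all 4 genes both miR-17 values were the lowest of the 5, as for 24.0% of all genes tested.

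The desaturases of polyunsaturated fatty acids differed from each other. FADS1 had 36.9, 34.3 and 36.4 TPM in the control, native let-7a and methylated let-7a, and 33.9 and 29.4 TPM with native and methylated miR-17. FADS2 had 10.3, 9.2 and 9.3 TPM in the control, native let-7a and methylated let-7a, and 12.3 and 11.9 TPM with native and methylated miR-17, the only fatty acid enzyme that was higher in both. Exons of FADS1 and FADS2 overlap on opposite strands, and FADS2 shares annotated exons with FEN1, a nuclease gene that had 53.7 TPM in the control and 54.0 and 48.9 TPM with native and methylated miR-17. The kit marks strand, but whether counting used it is not given in the sources used here. Over the 8 fatty acid enzymes the median log2 difference was -0.28 with native and -0.37 with methylated miR-17, and -0.04 and -0.06 with native and methylated let-7a. Over all genes tested these medians were 0.02, -0.07, 0.00 and -0.04 in the same order.

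The regulators differed among themselves, and 3 of 6 with native and 5 of 6 with methylated miR-17 were lower than the control, beside 46.5% and 56.3% of all genes tested. SREBF2, which encodes the SREBP that mainly drives sterol genes, had 174.6, 168.0 and 175.0 TPM in the control, native let-7a and methylated let-7a, and 175.1 and 160.7 TPM with native and methylated miR-17. SREBF1, whose products mainly drive fatty acid genes, had 123.8, 143.7 and 136.8 TPM in the control, native let-7a and methylated let-7a, and 142.7 and 124.4 TPM with native and methylated miR-17. SCAP had 33.9, 38.4 and 33.1 TPM in the control, native let-7a and methylated let-7a, and 37.3 and 31.2 TPM with native and methylated miR-17. For these 3 genes the miR-17 values overlapped those of the other libraries, and RNA levels say nothing of how much SREBP protein was cleaved.

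INSIG1, an SREBP target as well as a brake on SREBP, had 400.7, 491.7 and 467.5 TPM in the control, native let-7a and methylated let-7a, and 265.2 TPM in each miR-17 library. The groups did not overlap, and the log2 difference from the control was 0.29 and 0.22 with native and methylated let-7a against -0.59 with either miR-17. INSIG2, its relative with little sterol control, had 34.8 TPM in the control, 22.5 and 26.8 with native and methylated let-7a, and 21.5 and 22.5 with native and methylated miR-17. INSIG2 was thus lower than the control in all 4 microRNA libraries, and it was the 1 member of 32 (3.12%) at least 1.5-fold lower with native let-7a (-0.61), beside 3.85% of all genes tested. With a pseudocount of 5 no member reached that size. STARD4, a cytosolic sterol carrier, had 47.7, 51.5 and 48.5 TPM in the control, native let-7a and methylated let-7a, and 42.1 and 36.4 TPM with native and methylated miR-17. Over the 6 genes the median log2 difference was -0.09 with native and -0.25 with methylated miR-17, and 2 of 6 (33.3%) had both miR-17 libraries under the other 3, beside 24.0% of all genes tested.

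**Figure D3:**
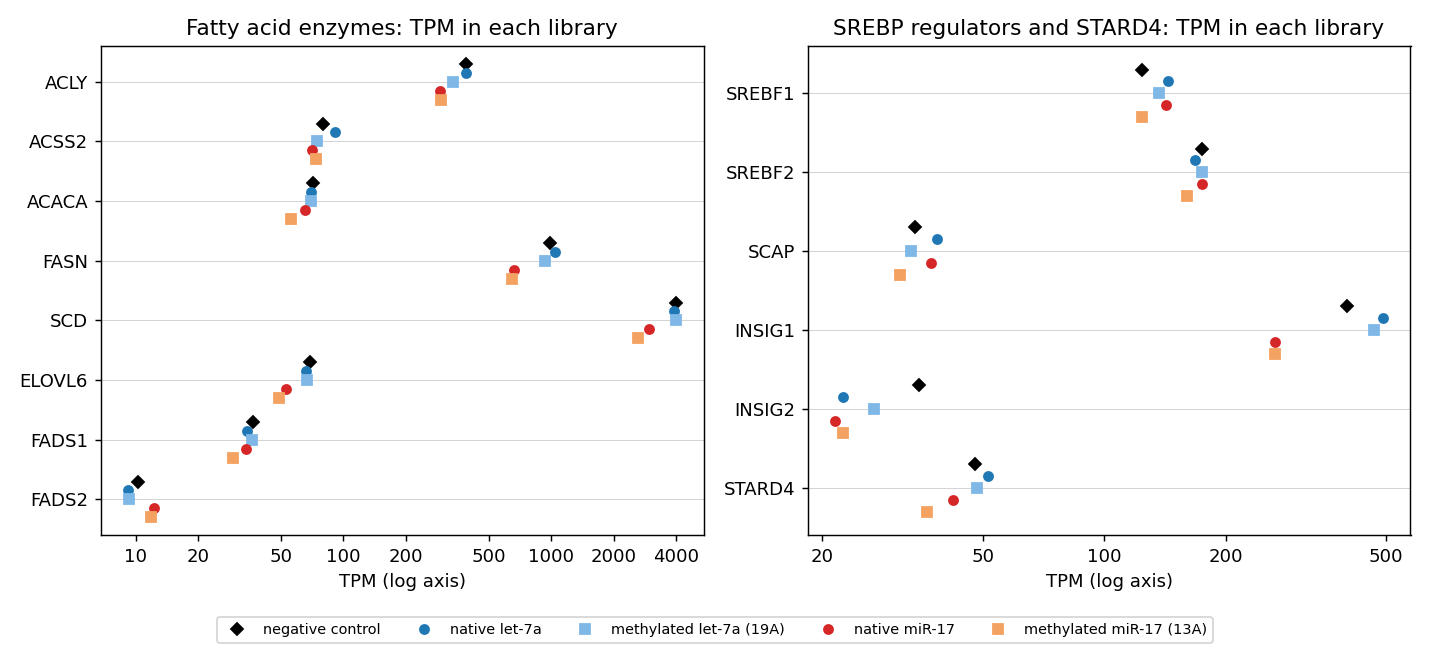
TPM (log axis) of the 8 fatty acid enzymes (left) and the 6 regulators (right), 1 point for each of the 5 libraries and no error bars. Both miR-17 points lie under the other 3 in 7 of 8 fatty acid enzymes and in 2 of 6 regulators, INSIG1 and STARD4. The same holds for 24.0% of all genes tested.

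Methylated and native miR-17 gave similar levels of the members. The median log2 difference of methylated minus native miR-17 was 0.05 for the sterol enzymes, -0.08 for the fatty acid enzymes and -0.16 for the regulators, beside -0.09 over all genes tested. None of the 32 members was 1.5-fold lower or higher, where 2.60% and 1.54% of all genes tested were. The absolute log2 difference was at most 0.2 for 28 of 32 members, and for 6823 of the 8805 genes averaging 10 TPM or more. The exceptions were NSDHL (0.29), SCAP (-0.25), ACACA (-0.23) and STARD4 (-0.21). With 1 library of each form, an effect of the methyl group and the variation between libraries cannot be told apart.

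Methylated and native let-7a also differed little. The absolute log2 difference was at most 0.2 for 26 of 32 members, and for 7508 of the 8805 genes averaging 10 TPM or more. Its median was 0.10 over the members and 0.09 over those genes. The median log2 difference of methylated minus native let-7a was -0.12 for the sterol enzymes, with 15 of 18 lower (beside 57.1% of all genes tested and 61.1% of those averaging 10 TPM or more), 0.01 for the fatty acid enzymes and -0.07 for the regulators, beside -0.03 over all genes tested. The largest differences were -0.36 for NSDHL and -0.31 for PMVK, and no member reached 1.5-fold, where 2.30% of all genes tested were lower by that size and 2.18% higher. For NSDHL the methylated form was the lower one of let-7a and the higher one of miR-17.

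**Figure D4:**
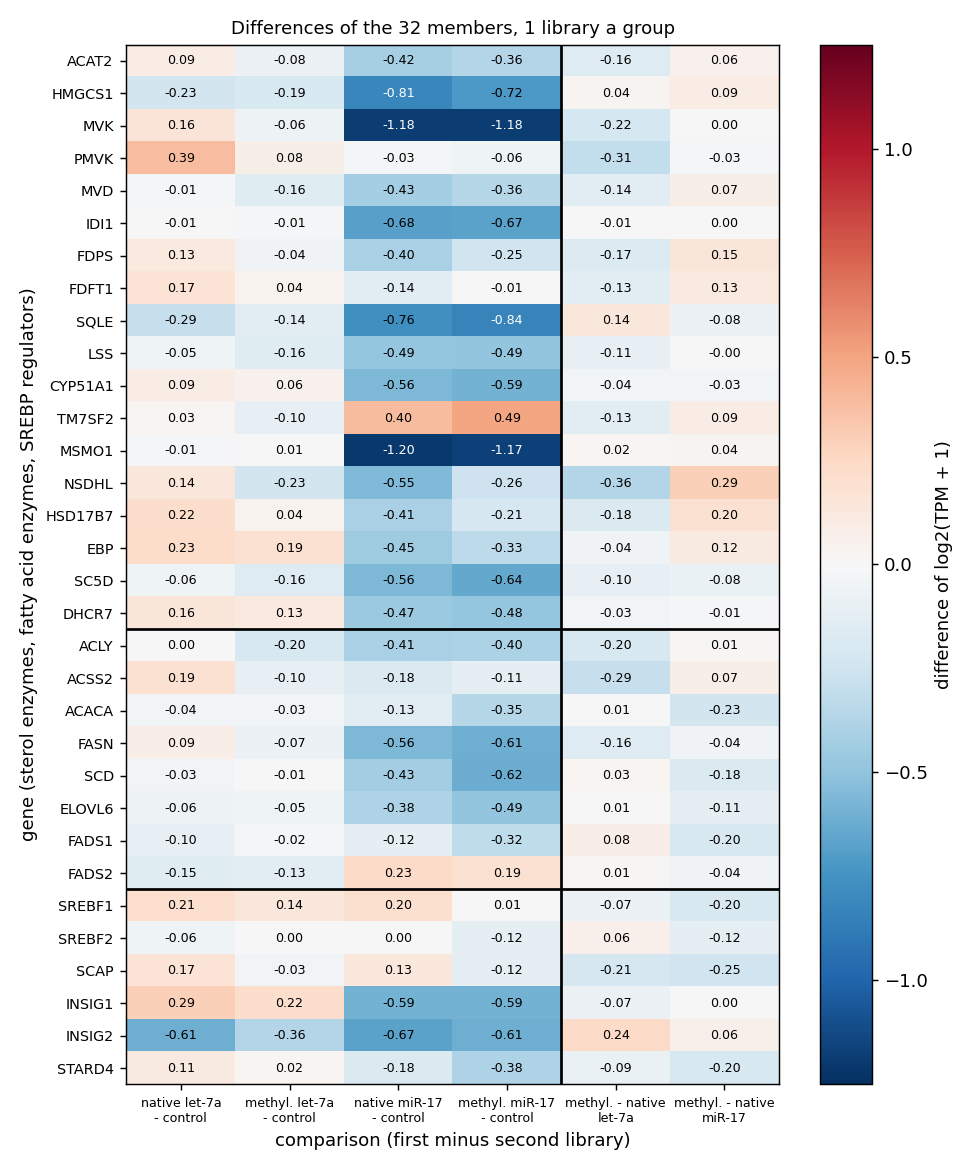
Differences of log2(TPM + 1) for the 32 members (rows, with black lines between sterol enzymes, fatty acid enzymes and regulators) in 6 comparisons (columns), with the value printed in each cell and colour from blue (lower) to red (higher). The native and methylated miR-17 columns reach -1.20 and -1.18, while the let-7a columns against the control stay between -0.61 and 0.39.

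A microRNA guides Argonaute to mRNAs that match its seed, bases 2 to 8, mostly in the 3′ untranslated region (3′ UTR). The mature human sequences in RefSeq are shown because the members' sites were sought from them, with the seed in capitals. The deposited labels do not give the sequence that was transfected. With position 1 at the 5′ end, let-7a-5p has an adenosine as base 19 and miR-17-5p as base 13, and the numbers in 19A and 13A were read as these positions.
hsa-let-7a-5p: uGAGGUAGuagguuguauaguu
hsa-miR-17-5p: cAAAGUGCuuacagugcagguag

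In the longest annotated 3′ UTR of each gene, 4 of 32 members have a miR-17 site, which is 12.5% of the members against 31.4% of the 12104 genes searched. A site was a match to bases 2 to 8 (GCACTTT), or to bases 2 to 7 followed by A (CACTTTA). None of the 32 has an 8mer, which combines both, against 5.52% of the genes searched. The median 3′ UTR length was 1198 bases for the members, 656.5 bases for the sterol enzymes and 1355.5 bases for all genes searched. The 4 members are MVK, MSMO1, SCD and ELOVL6. Their sites are shown because MVK and MSMO1 have the lowest miR-17 differences of all members, with the match in capitals, on the strand of the transcript and with GRCh38 positions, where all 5 sites lie in the 3′ UTR. They are at chr12:109597177-109597203 (plus strand) for MVK, chr4:165343022-165343048 (plus) for MSMO1, chr10:100361163-100361189 (plus) for SCD, and chr4:110048864-110048890 and chr4:110046398-110046424 (minus) for the 2 sites of ELOVL6.
MVK: gggtttatatGCACTTTcttccgatct
MSMO1: tgctgtatttGCACTTTgagctcttga
SCD: tcctccttttCACTTTAttgctatcgc
ELOVL6, nearer the stop codon: tgcttccaaaGCACTTTcattttggta
ELOVL6, farther from it: ctcaaaagtgGCACTTTgattttaggc

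All sterol enzymes without such a site but TM7SF2 were also lower than the control in both miR-17 libraries. PMVK in both, and FDFT1 with methylated miR-17, were only slightly lower. The 16 sterol enzymes without a site had a median log2 difference of -0.46 with native and -0.36 with methylated miR-17. Both enzymes with a site had a median of -1.19 and -1.18. Over all genes searched, the median was 0.06 and -0.02 for the 8300 genes without a site, and -0.09 and -0.21 for the 3804 with one. HMGCS1, SQLE and IDI1, the next lowest sterol enzymes, have none in any annotated 3′ UTR. Counting any annotated 3′ UTR, 8 members (25%) have a site, against 33.6% of the genes searched. The added members are DHCR7, HSD17B7, SREBF1 and STARD4. Whether the sites take part in the lower values was not tested.

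**Figure D5:**
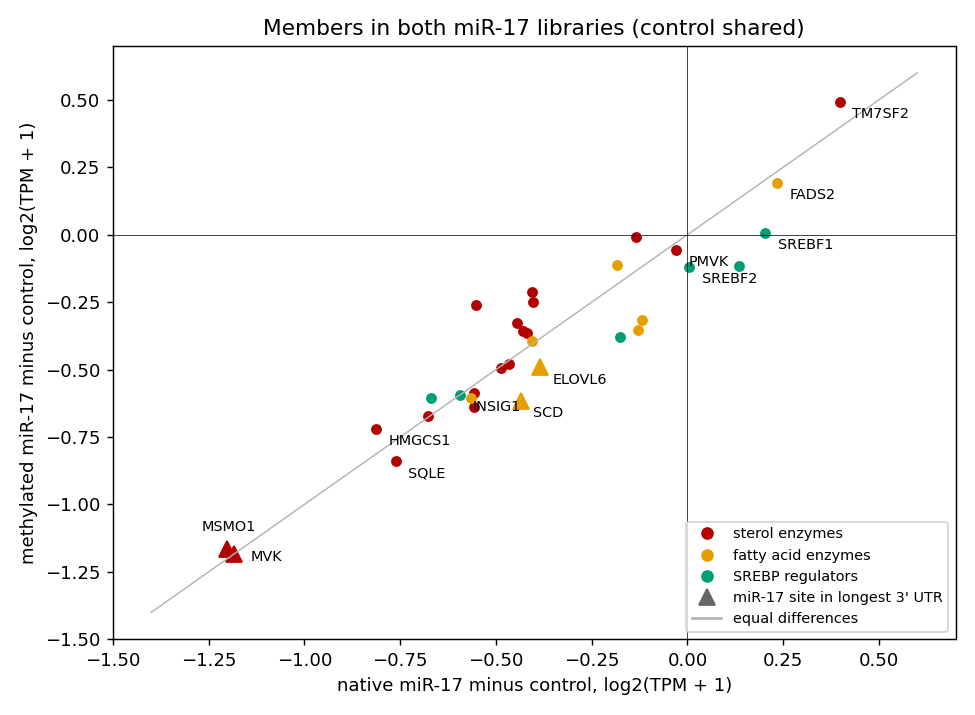
Difference of log2(TPM + 1) from the control in methylated miR-17 (vertical) against native miR-17 (horizontal) for the 32 members, coloured by group, with triangles for the 4 members that have a miR-17 site in the longest 3′ UTR and a grey line for equal differences. Both axes share the control library, so closeness to the line is a description. MVK and MSMO1 lie lowest, near -1.2 on both axes, and TM7SF2 highest, at 0.40 and 0.49.

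For let-7a, 5 of 32 members have a site in the longest 3′ UTR (15.6%, against 17.9% of all genes searched), and none of the sterol enzymes does. The 5 are SREBF2, STARD4, ACSS2, FADS2 and SCD. Their median log2 difference from the control was -0.03 with native and -0.01 with methylated let-7a, beside -0.07 and -0.08 for all searched genes with a site. INSIG2, the member lowest in native let-7a, has no let-7a site in any annotated 3′ UTR.

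Promoters of SREBP targets are known to hold sterol regulatory elements near sites of the factor NF-Y, which binds CCAAT. RefSeq windows on GRCh38.p14, from 250 bases before to 50 after a start site, were matched for 28 of 32 members, all but FDFT1, SQLE, ACAT2 and FASN. Where a gene has several windows, a match in any of them was counted, for members and all genes alike. The letters CCAAT, on either strand, occur in the windows of 13 of 15 sterol enzymes (86.7%), 5 of 7 fatty acid enzymes (71.4%) and 3 of 6 regulators. The share was 43.5% of the 9480 tested genes with a window and 39.7% of all 27305 symbols. The sterol enzymes without the letters are CYP51A1 and PMVK. GGGCGG, the core of an Sp1 site, occurs in 27 of 28 members (96.4%, against 78.2% of tested genes). The letters TCACNCCAC, on either strand, 1 form of a sterol regulatory element, occur in 1 member, SREBF2, and in 1.43% of tested genes. No match says only that these letters are not in the window.

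The 250 bases before a start site are shown for MSMO1 and HMGCS1, sterol enzymes with low miR-17 differences, and for INSIG1, the regulator with the clearest gap, with CCAAT or its reverse complement in capitals. Where a gene has several windows, the one with most CCAAT before the start site is shown. HMGCS1 has another window, at chr5:43313132-43313431 (minus), without these letters. These genes were chosen after their values were seen. They lie at chr4:165327419-165327668 (plus strand) for MSMO1, chr5:43313413-43313662 (minus) for HMGCS1 and chr7:155297628-155297877 (plus) for INSIG1. MSMO1 has 4 matches, HMGCS1 2 and INSIG1 1. The last sequence is the stretch around TCACNCCAC in SREBF2, at chr22:41832962-41832990 (plus strand).
MSMO1: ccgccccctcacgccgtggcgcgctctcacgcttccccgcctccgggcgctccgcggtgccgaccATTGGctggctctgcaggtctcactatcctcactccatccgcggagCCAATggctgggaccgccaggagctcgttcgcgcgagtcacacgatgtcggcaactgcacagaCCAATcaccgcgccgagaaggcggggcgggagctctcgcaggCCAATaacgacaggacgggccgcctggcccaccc
HMGCS1: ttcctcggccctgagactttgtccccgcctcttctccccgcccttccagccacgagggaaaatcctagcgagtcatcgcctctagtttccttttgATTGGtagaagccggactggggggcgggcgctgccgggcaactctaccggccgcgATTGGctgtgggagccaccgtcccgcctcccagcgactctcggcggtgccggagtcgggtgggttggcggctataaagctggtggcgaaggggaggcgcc
INSIG1: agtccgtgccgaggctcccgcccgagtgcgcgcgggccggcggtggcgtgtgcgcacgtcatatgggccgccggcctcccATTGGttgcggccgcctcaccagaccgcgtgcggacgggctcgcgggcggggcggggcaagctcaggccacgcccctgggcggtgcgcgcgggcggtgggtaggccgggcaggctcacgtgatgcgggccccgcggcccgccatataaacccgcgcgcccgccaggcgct
SREBF2: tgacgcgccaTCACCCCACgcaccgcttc

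Other genes of the SREBP system were taken from lists that hold no member and were also chosen with earlier results of these data known. Of 6 proteases and sterol-dependent ubiquitin ligase factors, none was 1.5-fold different from the control in any library. MBTPS1, the site-1 protease that starts SREBP cleavage, had 84.2, 90.8 and 89.0 TPM in the control, native let-7a and methylated let-7a, and 63.9 and 59.9 TPM with native and methylated miR-17. RNF139, a ubiquitin ligase of the endoplasmic reticulum, had 85.6 TPM in the control and 71.0 and 64.2 TPM with native and methylated miR-17. MBTPS2, the site-2 protease, had 10.3 TPM in the control and 12.1 and 11 TPM with native and methylated miR-17.

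Of 17 further SREBP-responsive or lipid synthesis genes, 10 (58.8%) had both miR-17 libraries under the other 3, with median log2 differences from the control of -0.13 and -0.16 in native and methylated miR-17. Over all genes tested the share was 24.0% and the medians 0.02 and -0.07. LPIN1, a phosphatidate phosphatase, had 19, 21.5 and 20.2 TPM in the control, native let-7a and methylated let-7a, and 12.5 and 11.4 TPM with native and methylated miR-17. PANK3, a kinase of coenzyme A synthesis, had 54.0, 58.6 and 60.9 TPM in the control, native let-7a and methylated let-7a, and 35.9 and 29 TPM with native and methylated miR-17. Both were at least 1.5-fold lower than the control with methylated miR-17, which makes 11.8% of the list beside 10.1% of all genes tested. Their longest 3′ UTRs, of 2618 and 9076 bases, hold 2 and 4 miR-17 sites. The median length over all genes searched was 1355.5 bases, and 31.4% of them have a site. Of the other lipid genes compared here with such a site, ERLIN1, MBTPS1, CPT1A and MYLIP were lower than the control in both miR-17 libraries. ERLIN2, GGPS1, MBTPS2, ACADM and ETFDH were higher in both, and ABCA1 was higher with native and lower with methylated miR-17. SLC25A1, the mitochondrial citrate carrier, had 227.1 TPM in the control and 207.0 and 216.7 TPM with native and methylated miR-17, and TECR, an enzyme of very long chain elongation, 205.5 TPM and 220.9 and 241.4 TPM. TECR was thus higher than the control in both.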

How the data were processed

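Total RNA from 5 libraries was sequenced after Isogen extraction and a stranded, ribosomal RNA-depleted TruSeq library, per the labels' protocols. TPM values per gene, to 1 decimal, are what the authors deposited, and the columns sum to between 999994.3 and 1000003.9. Per the submitters' processing notes the build was hg19, while aligner, counting tool and annotation were not given in the sources used here. Depth is unknown, and no counts can be recovered from TPM.

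Differences of log2(TPM + 1) were computed in 6 comparisons for the 14177 genes averaging 1 TPM or more, with Python 3.11.15 and pandas 2.3.3. Medians, counts past 1.5-fold and 2-fold, and the position of both miR-17 libraries against the other 3 describe the members beside all genes. No test was made because each group is 1 library. The 3′ UTRs came from GENCODE 29 (GRCh38), for genes with at least 50 bases. Of the tested genes, 13839 matched by identifier and 141 by symbol, ACACA among these. Promoters and microRNAs came from RefSeq. The hg19 table holds no coordinates, and those given are GRCh38. The difference, count and seed-site code was checked on simulated data. Members and lists were chosen with earlier results of these data known. All 32 members are reported. Of the other lists, genes at least 1.5-fold different from the control in any library are named, with examples of high mean TPM. MBTPS2, CPT1A, ABCA1, SOAT1 and the genes overlapping members were added after their values were seen. Alternatives were another pseudocount (0.1 or 5), another filter (5 TPM or none), centring, rescaling without mitochondrial and ribosomal protein genes, and the other microRNA's libraries as reference.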

Additional observations from a re-analysis of the deposited data

How the results depend on the processing

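Of 204 recomputed values over 33 results and 8 settings, 193 moved by no more than 0.1 (log2 medians) or 1.5 times (counts) and 11 moved further. Among the medians, 4 changed sign, each from a value within 0.1 of 0. Every median of the sterol and fatty acid enzymes in the miR-17 libraries minus the reference was among the 193, and negative. With the miR-17 libraries as reference, native let-7a gave a sterol median of 0.536 and a fatty acid median of 0.355 (in place of -0.036), with 8 members at least 1.5-fold higher and 0 lower, and methylated let-7a gave 0.395 (in place of -0.052), 0.207 (in place of -0.063) and a regulator median of 0.167, with 7 members higher. The reference itself holds low values of these genes. With a pseudocount of 5, 0 members were 1.5-fold lower with native let-7a, in place of 1, INSIG2. Centred on the median of all genes tested, 5 members were 1.5-fold lower with methylated miR-17, in place of 11, because that median lies at -0.07 and several members lie near the limit. A centred share of all genes was not computed. The same centring moved the fatty acid median of methylated minus native miR-17 from -0.076 to 0.012, and the sterol median from 0.046 to 0.135. Rescaling without mitochondrial and ribosomal protein genes gave 10 in place of 11. Counting any annotated 3′ UTR gave 8 members with a miR-17 site in place of 4. No paired analysis was possible because each group holds 1 library. With depth unknown, counting error is unknown too, and leaving out a replicate could not be done.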

Other observations

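Genes of mitochondrial fatty acid oxidation, which breaks down fatty acids, were mostly higher than the control in the miR-17 libraries. Of 14 genes tested, 13 were higher than the control with native and 13 with methylated miR-17, with median log2 differences of 0.17 and 0.15, beside 0.02 and -0.07 over all genes tested, of which 51.6% and 42.1% were higher. With native let-7a 11 of the 14 were also higher than the control (median 0.10), and with methylated let-7a 6 of 14 (median -0.02), so higher values were not limited to miR-17. Both miR-17 libraries lay above the other 3 in 9 of 14 (64.3%, against 20.8% of all genes tested). This list, too, was chosen with earlier results of these data known. CPT2, an acyltransferase of the inner mitochondrial membrane, had 19.3, 24.7 and 23.8 TPM in the control, native let-7a and methylated let-7a, and 30.0 and 28.9 TPM with native and methylated miR-17, and HADHA, a subunit of the trifunctional protein, had 162.1, 162.9, 157.6, 167.8 and 172.6 TPM in the same order. CPT1A, which admits long chains to mitochondria, was the 1 gene lower in both, with 35.5 TPM in the control and 34.6 and 33.6 TPM.

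Of 7 genes of the liver X receptors, which respond to oxysterols, and of sterol efflux or esterification, MYLIP differed most. MYLIP, a ubiquitin ligase, had 41.9, 43.6 and 39.8 TPM in the control, native let-7a and methylated let-7a, and 25.1 and 24.4 TPM with native and methylated miR-17, and its longest 3′ UTR has 1 miR-17 site. NR1H2, which encodes such a receptor, had 67.1 TPM in the control and 66.5 and 67.6 TPM with native and methylated miR-17. ABCA1, a sterol exporter, had 1.8 TPM in the control and 2.8 and 1.6 TPM with native and methylated miR-17. The longest 3′ UTR of ABCA1 also has 1 miR-17 site, an 8mer. SOAT1, which esterifies cholesterol, had 16.2 TPM in the control and 13.9 and 12.3 TPM.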
